A study of Homo sapiens with 12 samples.

Results

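ML-2, an established human line of acute myeloid leukaemia, was compared by a single feature of their treatment, the presence of SGI-110. All 12 of the 12 arrays of the series entered this comparison: 6 arrays of cells given SGI-110 against 6 arrays of cells not given it. The 6 arrays with SGI-110 were 3 of cells given 2 µM SGI-110 for 33 h and 3 of cells given 2 µM SGI-110 for 24 h and then 5 µM ASTX660 for 9 h, here called the combination. The 6 arrays without it were 3 of cells given solvent and 3 of cells given solvent first and then 5 µM ASTX660 for 9 h. The series design speaks of 3 independent experiments, and arrays in each of the 4 groups carry the numbers 2, 9 and 13 in their titles. The sources used here do not give if SGI-110 remained in the medium during the last 9 h of the combination. All groups are a single cell line, so the numbers describe that line.

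SGI-110 (guadecitabine) is a dinucleotide of decitabine and deoxyguanosine. Decitabine is built into DNA during replication, where it traps DNA methyltransferases, so that methylation is lost as cells divide, and in leukaemia cells it is known for reactivating silenced genes, for signalling through p53 and for partial maturation. ASTX660 (tolinapant) antagonises the inhibitor of apoptosis proteins, which restrain caspases and steer signalling from death receptors.

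Values were RMA log2 intensities, so a difference of 1 is 2-fold. For each of 12689 genes, limma fitted the SGI-110 difference over all 12 arrays, with ASTX660 and the array number as covariates, and genes with an adjusted p under 0.05 were called. A small difference here means under 1.5-fold (0.585 on the log2 scale). The pooled comparison was set beside its parts of 3 against 3 arrays: SGI-110 minus solvent, and the combination minus ASTX660. These parts share no array. Since each SGI-110 array has a partner with the same number and the same ASTX660 state, 6 pair differences could be read for each gene.

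The arrays split by SGI-110 on the first principal component (51.2% of the variance), number 13 lay apart on the second (13.9%), and the ASTX660 array numbered 2 lay apart on the third (11.7%), at 16.95 against -9.28 to 4.11 for the other arrays. On that array the median of all tested genes was 0.052 above the mean of the arrays without SGI-110, against -0.022 to 0.0026 on the others. Of 15 myeloid leukaemia markers in the gene table, 11 were above the array median on all 12 arrays, led by CTSG, ELANE, MPO and LYZ, while KIT and MEIS1, at 3.10 to 3.98, were near the bottom of the scale.

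With SGI-110, 5004 of 12689 genes were called (39.4%), 2631 higher (20.7%) and 2373 lower (18.7%). The strongest increases were those of TKTL1, a transketolase-like enzyme, and TP53I3, a p53 target. TKTL1 had a lowest, median and highest level of 3.64, 3.95 and 4.55 without SGI-110 and of 7.67, 7.81 and 8.59 with it, a difference of 4.001 ± 0.15 (SE). All 6 of its levels without SGI-110 were below the medians of the arrays (4.69 to 4.77), as were those of MAEL. RMA compresses differences from such low levels, so no fold is given for either gene. TP53I3 went from 4.71, 4.96 and 5.38 to 8.38, 8.91 and 9.03, a difference of 3.79 ± 0.11. Neither gene's arrays overlapped between the arms. MGST1, a microsomal glutathione transferase (2.52, although 1 of its 5 probe sets read -0.012), MAEL, a germline gene of the piRNA pathway (2.24), CDKN1A, the p53-induced inhibitor of cyclin-dependent kinases (2.21), and HP, the haemoglobin scavenger haptoglobin (2.14), followed. Decreases were smaller: AFF3, a nuclear factor of the AF4 family, had -1.53 ± 0.055 (SE), and MANEAL, KATNAL2, NKD2, IGLL1 and IMMP2L lay between -1.29 and -0.94. AFF3 ranged from 6.97 to 7.64 without SGI-110 and from 5.48 to 6.14 with it, whereas the arrays of IGLL1, part of the surrogate light chain, overlapped between the arms since number 9 was high in every group. IMMP2L rests on 1 of 2 probe sets, the other reading 0.0014.

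Most of the difference was small. Of the 5004 calls, 4672 (36.8% of the genes tested, 93.4% of the calls) were under 1.5-fold, 2337 higher and 2335 lower, and 3244 were under 1.2-fold. Above 1.5-fold the balance was one-sided, with 294 genes higher and 38 lower, and above 2-fold it was 90 against 5. The median size of a called difference was 0.21 (1.16-fold) and the smallest was 0.035 (1.02-fold). Below 1.1-fold, 989 of 8239 genes were called (12%), and between 1.1 and 1.2-fold 2255 of 2688 (83.9%), against all 564 genes between 1.3 and 1.5-fold.

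**Figure D1:**
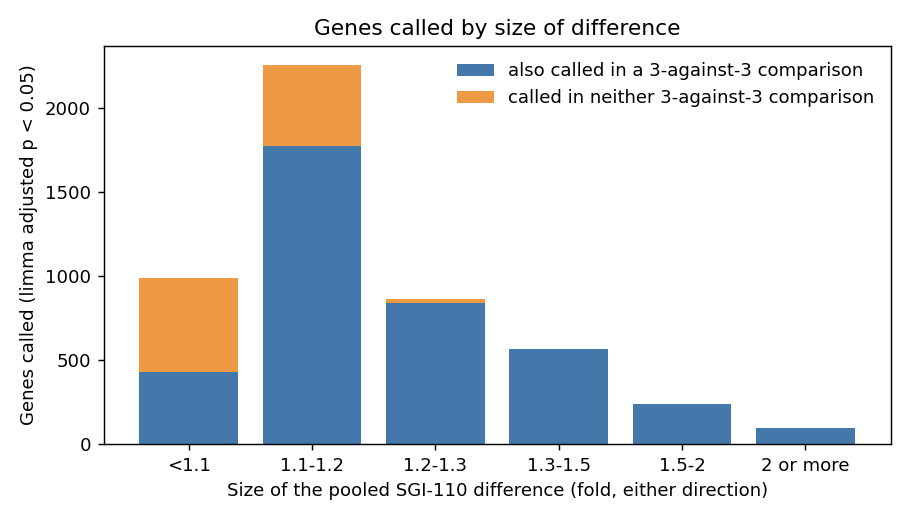
Bars count the genes called in the pooled comparison (limma adjusted p < 0.05, y axis) by the size of the SGI-110 difference in either direction (fold, x axis). Orange marks the genes called in neither 3-against-3 comparison: 558 of 989 below 1.1-fold, 485 of 2255 at 1.1 to 1.2-fold, 22 of 864 at 1.2 to 1.3-fold, and none above.

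Pooling narrowed the error. The median standard error was 0.052 over 12 arrays and 0.074 for 3 against 3, and the median 95% interval reached 0.11 (1.08-fold) to either side against 0.16 (1.11-fold). SGI-110 minus solvent gave 3202 calls (25.2%), 1887 higher (14.9%) and 1315 lower (10.4%), and the combination minus ASTX660 gave 3378 (26.6%), 1722 higher (13.6%) and 1656 lower (13.1%). Both of these counts came from a fit to all 12 arrays that shared an estimate of the spread. Fitted on its own 6 arrays, SGI-110 minus solvent gave 4382 calls, and the combination minus ASTX660 gave 1931. With the shared estimate, the pooled comparison called 1065 genes that neither 3-against-3 comparison called (517 higher, 548 lower). How many of them the fits on 6 arrays called was not counted. Every one of these 1065 was a small difference, with a median size of 0.13 and a largest of 0.36. The same sign in all 6 pairs was seen for 617 of them, a description, since the same values made the calls. In the other direction, 185 genes called in a 3-against-3 comparison were not called in the pooled one. Without the array number in the model the pooled count was 3969 (2089 higher, 1880 lower), of which 3966 were also called with it, and the 3-against-3 counts were 1955 and 2038. Number 13 weighed on these counts: without its 4 arrays the pooled count was 3219.

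The parts of the comparison share no array but share the numbers 2, 9 and 13, and deviations of same-numbered arrays correlated across the parts at 0.085 to 0.55, so they are not shown to be independent. Fitted on its own 6 arrays, SGI-110 minus solvent called 4017 genes under 1.5-fold, of which 3908 (97.3%) had the same sign in the combination minus ASTX660. Fitted likewise, the combination minus ASTX660 called 1591 such genes, of which 1581 (99.4%) had the same sign in SGI-110 minus solvent. Over all 12689 genes the share with the same sign was 78.1%. All 6 pairs had the same sign for 4504 genes (35.5%), 4018 of them called, and for 3686 of the 4672 small calls (78.9%). The 6 arrays with SGI-110 and the 6 without it did not overlap for 2084 genes (16.4%), among them 1775 of the small calls (37.99%). The calls were made from the values that give the pair signs and the overlap. Higher shares among called genes thus follow in part from the calling and are no separate evidence for the calls.

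**Figure D2:**
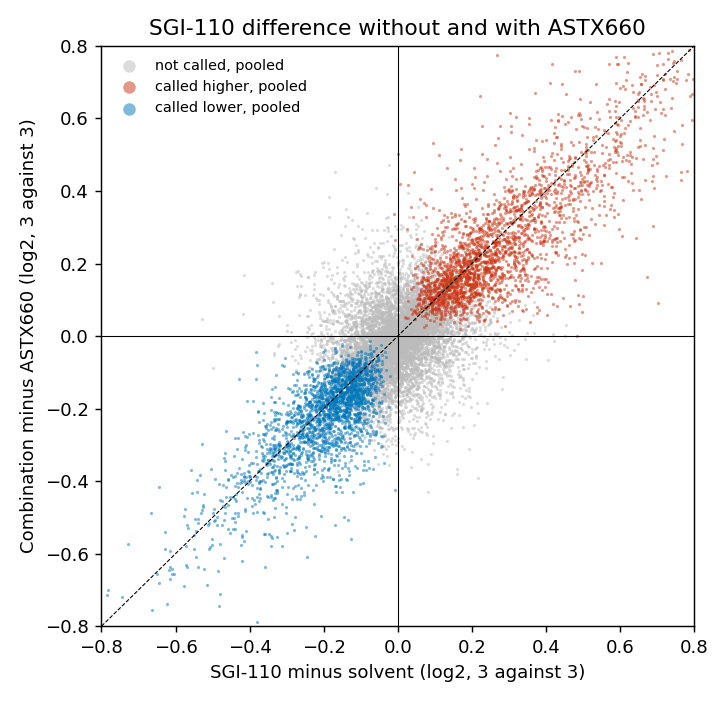
Each point is a gene, with SGI-110 minus solvent on the x axis and the combination minus ASTX660 on the y axis (log2, 3 against 3 arrays each, no array shared). 12497 genes lie within 0.8 on both axes and are drawn, and 192 lie outside. Genes called higher in the pooled comparison (red) and lower (blue) spread along the dashed line of equal differences, and genes not called (grey) gather around 0.

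The model adds SGI-110 and ASTX660 with no term for their interplay, so the difference between both parts was tested as an interaction. limma called 0 of 12689 genes for it (0.0%), with and without the array number, and in every alternative run. Of 12689 genes, 394 had an unadjusted p under 0.05 (3.1%), and the smallest adjusted p was 0.995. Its median standard error was 0.10 against 0.052 for the pooled difference, and for 96.6% of genes the 95% interval of the interaction lay within 1.5-fold, so an interaction under that size was not excluded by it. CDKN1A, for example, was 2.33 higher without ASTX660 and 2.08 higher with it, an interaction of -0.25 that did not pass.

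The balance of small rises and falls depended on how the arrays were scaled. Of the calls, 52.6% were higher in the values as deposited. When each array was centred on its own median, 1791 genes were called higher and 3304 lower (35.2% higher), and after quantile normalization 2667 and 2720 (49.5%). The median difference over all tested genes was -0.0046 as deposited, -0.053 after centring and -0.016 after quantile normalization. In all 3 scalings 4115 genes were called in the same direction (32.4% of genes, 82.2% of the calls), 1790 higher and 2325 lower, of which 3783 were under 1.5-fold. Below 1.1-fold 52.98% of calls stood in all 3 scalings, against 99.2% at 1.2 to 1.3-fold.

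Genes for making ribosomes fell almost as a whole, by little each. Of 51 tested genes of ribosome biogenesis, 47 fell (92.2%, against 18.7% of all genes) and 0 rose. All the falls were under 1.5-fold, and the list median was -0.21 against -0.0046 for all genes. The list's median on single arrays was -0.029 to 0.040 without SGI-110 and -0.28 to -0.16 with it, so that the arms did not overlap. NOP16, a nucleolar protein of the large subunit's assembly, had levels of 11.23, 11.27 and 11.36 (lowest, median, highest) without SGI-110 and 10.81, 10.87 and 10.96 with it, a difference of -0.41 ± 0.029 (SE). Its 4 probe sets spanned -0.53 to 0.036. RRS1, which brings 5S RNA into the pre-ribosome, fell from 10.59, 10.68 and 10.73 to 10.29, 10.36 and 10.43 (-0.31). NCL (nucleolin), at -0.23, and DDX10, a helicase, at -0.43 from 1 of 2 probe sets, likewise had arms that did not overlap. The catalytic subunits of RNA polymerase I, POLR1A (-0.34) and POLR1B (-0.26), and FBL (fibrillarin, -0.20) also fell, while UTP4, RRP12, NOP10 and GNL3L, between -0.060 and 0.053, did not pass. With centred arrays 48 fell, 43 without the array number, and 40 without number 13. Of all 12689 genes, 3304, 1880 and 1506 fell in these settings, in that order.

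Few genes for the proteins of the cytosolic ribosome itself were called. Of 51 tested, 3 were called higher (5.88%) and 2 lower (3.92%), against 20.7% and 18.7% of all genes. The median difference was -0.0076, and the list's median on the 12 arrays stayed between -0.011 and 0.015. RPS19 was called 0.076 higher (adjusted p = 4.28e-05 by limma), with levels of 13.94 to 13.96 without SGI-110 and of 14.01 to 14.05 with it. These are among the brightest probe sets of the array, where small differences have small errors, and the count turned with scaling: after centring 0 were higher and 27 lower, and RPS19 no longer passed (limma adjusted p = 0.239). RPL31, called at 0.036, did not pass without the array number (limma adjusted p = 0.085) and read -0.012 after centring. A direction for this list is therefore not given.

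Mitochondrial lists were read by function. Of 31 import and chaperone genes, 23 fell (74.2%) and 1 rose (3.23%), against 18.7% and 20.7% of all genes. The list's median was -0.18, and its arms did not overlap (-0.014 to 0.030 without SGI-110, -0.22 to -0.13 with it). HSPD1, the matrix chaperonin, had 13.48, 13.51 and 13.57 without SGI-110 and 13.28, 13.30 and 13.37 with it, a difference of -0.20 ± 0.018 (SE; 1.15-fold), and fell in 6 of 6 pairs. LONP1, the matrix protease (-0.42), HSPA9, the import motor's chaperone (-0.25), and TOMM40, the outer membrane channel (-0.25), fell too. TIMM8B, at 0.082, was the member called higher, and it lost that call with centred arrays and without the array number (limma adjusted p = 0.387 and 0.0523). Of 75 mitochondrial ribosomal proteins, 48 fell (64%) and 5 rose (6.67%), with a median of -0.11. MRPL15 (-0.40), MRPL4 (-0.33) and MRPL3 (-0.25) were among the falls. Of these 53 calls, 13 were in neither 3-against-3 comparison. Without number 13 the 48 became 30, and 1506 of all 12689 genes were called lower.

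In the values as deposited, the respiratory chain had shares nearer to those of all genes, 20.7% higher and 18.7% lower. In complex I, 10 of 33 genes were lower (30.3%) and 4 higher (12.1%; median -0.026): NDUFS7 (from 1 of 2 probe sets, the other at 0.048), NDUFV2 and NDUFS4 lay between -0.23 and -0.15, and NDUFB1 was at 0.15. In complexes II to V, 9 of 37 were lower (24.3%) and 10 higher (27.03%; median -0.010). SDHA, the flavoprotein of complex II (-0.20), CYC1, cytochrome c1 (-0.17), and ATP5MC3, a ring subunit of ATP synthase (-0.14), fell. ATP5MC3 ranged from 12.97 to 13.01 without SGI-110 and from 12.82 to 12.90 with it. After centring, complex I had 1 higher and 15 lower, and complexes II to V had 3 higher and 14 lower. Of all 12689 genes, centring gave 1791 higher and 3304 lower. In complexes II to V, 6 were higher without the intensity trend in the moderation or without number 13. With the mean of all probe sets 4 were higher. Of all genes 2446, 1713 and 2419 were higher in these settings, in that order.

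Translation factors, chaperones and RNA machinery fell in part. Of all genes 18.7% fell and 20.7% rose. The falls were 51.3% of translation factors, 62.1% of cytosolic chaperones, 43.1% of splicing genes and 48.6% of nuclear pore genes. The rises were 0%, 13.8%, 5.88% and 14.3% in the same order. Of 39 initiation and elongation factors 20 fell and 0 rose (median -0.058). EIF4EBP1, a repressor of initiation, had the largest decrease, from 11.07, 11.23 and 11.39 to 10.52, 10.74 and 10.84 (-0.49). GSPT1, a release factor (-0.29), EIF2B3 (-0.38) and EIF2S2 (-0.20), parts of the initiator-tRNA cycle, fell with it, whereas EEF1A1 and PABPC1, at -0.011 and -0.013, did not pass. Of 29 cytosolic chaperones 18 fell and 4 rose (median -0.097): chaperonin subunits, with CCT6A at -0.26 and CCT3 at -0.18, and both cytosolic HSP90 genes, HSP90AB1 at -0.155 and HSP90AA1 at -0.10, were lower, and PFDN5 (0.15), BAG3 (0.21) and HSPB1 (0.25) higher, BAG3 and HSPB1 not without the array number (limma adjusted p = 0.0716 and 0.063). Of 51 splicing genes 22 fell and 3 rose (median -0.067), with SF3B5 at -0.26, SRSF7 at -0.16 and PRPF19 at -0.17, and 11 of these 25 calls came from the pooled comparison alone. Of 35 nuclear pore and transport genes 17 fell and 5 rose (median -0.081). The falls included the transport receptor KPNA2 (-0.26) and the Ran cycle proteins RANGAP1 (-0.33), RCC1 (-0.32) and RAN (-0.13). The rises included the pore proteins NUP214 (0.38, with 1 of 3 probe sets below 0) and TPR (0.21), the latter not without the array number (limma adjusted p = 0.361). Without number 13 the falls were 13 for translation factors, 11 for splicing and 8 for the nuclear pore. Without the intensity trend they were 12 for splicing and 11 for the nuclear pore. For the nuclear pore they were also 11 without number 2. Of all 12689 genes, 1506 were lower without number 13, 2214 without the intensity trend and 2097 without number 2.

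**Figure D3:**
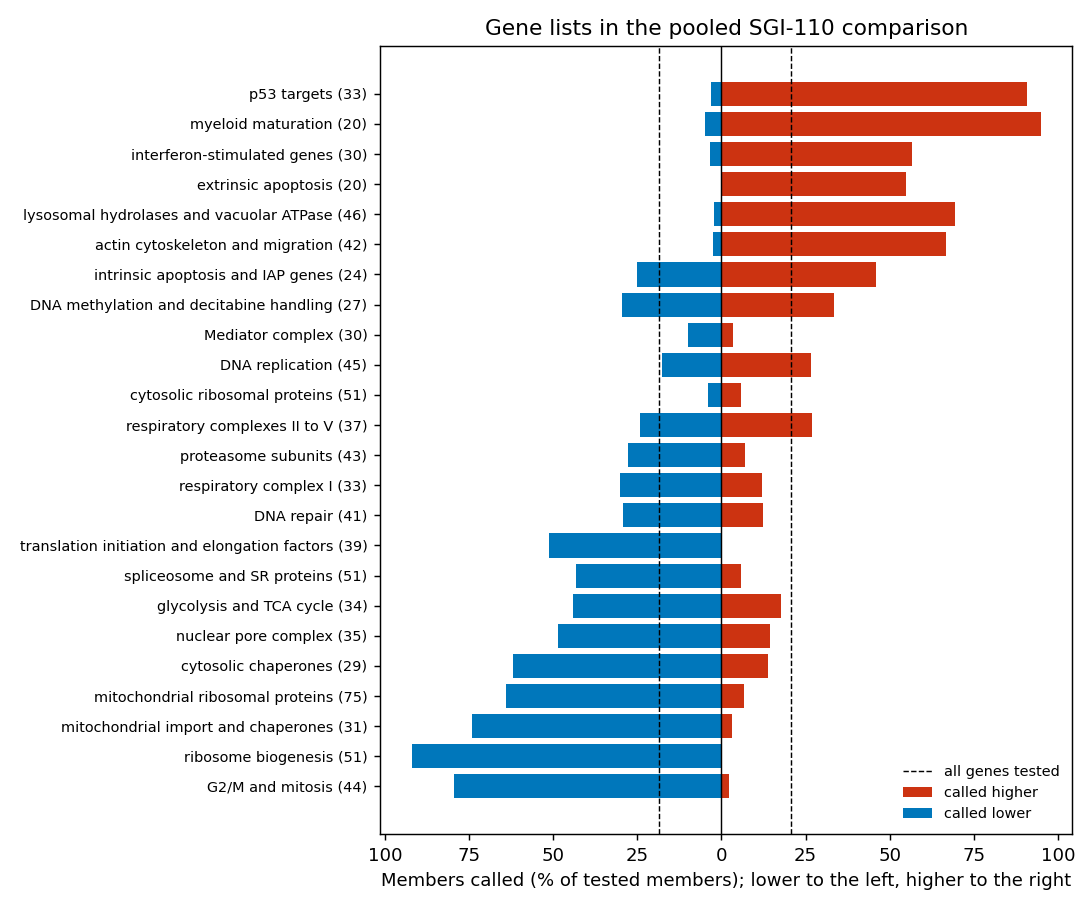
Bars give the share of each list's tested members (number in brackets) called higher (red, right) and lower (blue, left) in the pooled comparison, in percent. Dashed lines mark all tested genes, 20.7% higher and 18.7% lower. Lists are ordered by their median difference. Ribosome biogenesis has the largest share lower, at 92.2%, and myeloid maturation the largest share higher, at 95.0%. The Mediator complex and cytosolic ribosomal proteins stay below both lines.

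Of 44 G2/M and mitotic genes 35 fell (79.5%, against 18.7% of all genes) and 1 rose (median -0.23). HMMR, a spindle protein, had 11.17, 11.40 and 11.52 without SGI-110 and 10.76, 10.86 and 11.06 with it, a difference of -0.50 ± 0.038 (SE). CCNB1, the mitotic cyclin (-0.38), BUB1, a checkpoint kinase (-0.44), and CKS2, which binds the cyclin-dependent kinases (-0.35), fell in 6 of 6 pairs. CENPN rose (0.086) and TOP2A (0.0080) did not pass. In RNA from whole cultures, fewer cells in a phase and less RNA per cell cannot be told apart. The list's median varied by number within each arm, lowest for number 9: from -0.12 to 0.098 without SGI-110 and from -0.31 to -0.15 with it. Replication genes had shares near those of all genes (20.7% higher, 18.7% lower): of 45, 12 were higher (26.7%) and 8 lower (17.8%; median 0.0051). The difference between the lists was not tested. The calls included rises of LIG1 (0.18), TK1 (0.16), MCM5 (0.15), PCNA (0.15), FEN1 (0.12) and TYMS (0.10) and falls of ORC5 (-0.25), PRIM2 (-0.24; not called without the array number, limma adjusted p = 0.0804) and POLD2 (-0.23), among others. After centring the replication counts were 5 higher and 12 lower, 6 were higher without number 9, and 4 were lower without number 13. Of all 12689 genes, 1791 were higher and 3304 lower after centring, 2022 higher without number 9 and 1506 lower without number 13. Of 41 repair genes 12 fell (29.3%) and 5 rose (12.2%; median -0.034), among them RAD50 (-0.27), PARP1 (-0.18), APEX1 (-0.19) and XRCC6 (-0.14) lower and LIG4, the ligase of end joining, higher (0.34).

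Lists of other core machinery differed in their share of falls, against 18.7% of all genes. Of 43 proteasome genes 12 fell (27.9%) and 3 rose (median -0.018), and the largest falls were those of assembly chaperones, PSMG4 (-0.35) and PSMG1 (-0.34), not of core subunits. The 5 probe sets of PSMG4 spanned -0.35 to 0.00076. Without the array number 7 proteasome genes fell, as without the SGI-110 array numbered 2 or the combination array numbered 9. The falls were 6 without number 2 or 13, and 4 without number 9 or the intensity trend. Of 30 Mediator genes 3 were lower (10.0%; MED27 -0.18, MED16 -0.14, MED22 -0.12) and 1 higher (MED28 0.078). MED22 and MED28 did not pass without the array number (limma adjusted p = 0.0533 and 0.152), and MED28 read -0.0052 as the mean of its probe sets. Of 34 genes of glycolysis and the citric acid cycle 15 fell (44.1%) and 6 rose (median -0.074). SUCLG2 (-0.40), DLAT (-0.22), GPI (-0.20) and LDHB (-0.12) were lower, and ENO2, the neuronal enolase (1.51), HK1 (0.46) and SLC2A3, a glucose transporter (0.26; not called without the array number, limma adjusted p = 0.172), higher. LDHB had 13.48 to 13.56 without SGI-110 and 13.37 to 13.44 with it, arms that did not overlap at a 1.08-fold difference.

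**Figure D4:**
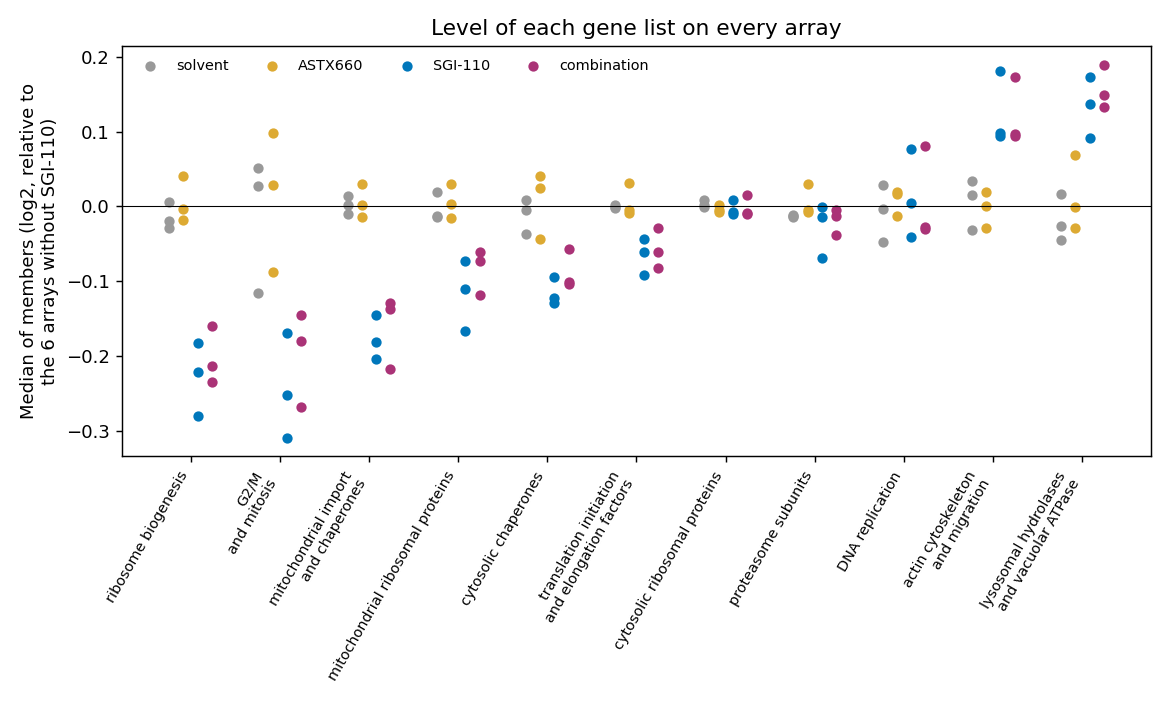
Each point is the median of a list's tested members on 1 array (log2, relative to the mean of the 6 arrays without SGI-110), with 3 arrays in each of the 4 groups. Arrays with SGI-110 (blue, purple) lie at -0.28 to -0.16 for ribosome biogenesis and at 0.092 to 0.19 for lysosomal genes, clear of the arrays without it, and the cytosolic ribosomal proteins stay between -0.011 and 0.015.

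Lysosomal genes rose together, again mostly by little. Of 46 hydrolases, membrane proteins and vacuolar ATPase subunits 32 rose (69.6%) and 1 fell (2.17%), against 20.7% and 18.7% of all genes. The median difference was 0.14, and 31 of the rises were under 1.5-fold. The list's median was -0.046 to 0.068 without SGI-110 and 0.092 to 0.19 with it. NEU1, the lysosomal sialidase, had 8.001, 8.13 and 8.43 without SGI-110 and 8.66, 8.81 and 9.03 with it, a difference of 0.63 ± 0.044 (SE). CTSB, a cysteine protease, went from 9.98, 10.05 and 10.15 to 10.51, 10.61 and 10.69 (0.54), and PSAP, the saposin precursor, from 10.17, 10.24 and 10.41 to 10.57, 10.66 and 10.78 (0.40). ATP6V0D1, of the proton pump (0.46), CTSD, an aspartic protease (0.41), and CD63, a membrane protein of late endosomes (0.31), rose too. CTSC was lower (-0.11), though not called without the array number (limma adjusted p = 0.106), and LAMP2 (-0.049) and GLA (0.074) were among 13 that did not pass. Centred arrays gave 22 higher and 1 lower, and the mean of all probe sets 23 and 1. Of all 12689 genes, these settings called 1791 and 2419 higher.

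The letters CACGTG, an E-box at the core of the motif known from lysosomal promoters and read the same on both strands, were searched in the 250 bases before each gene's start (RefSeq, GRCh38.p14). A single start was used for each gene, the first listed, and any other starts were not read. A promoter was found for 10227 of the 12689 genes, and 8.72% of these held the motif, against 6.49% of all 27305 promoters of the table. In the lysosomal list 10 of 33 held it (30.3%). Of those 10, 9 were higher and 0 lower (median 0.28), and of the other 23, 16 were higher and 1 lower (median 0.145), a difference that was not tested. Of the 10, NEU1, ATP6V0D1, CD63 and CTSD are shown as 60 bases in the direction of transcription, with CACGTG in capitals: chr6:31862915-31862974 for NEU1, chr16:67481184-67481243 for ATP6V0D1, chr12:55729157-55729216 for CD63 and chr11:1763942-1764001 for CTSD, all on the minus strand.
NEU1: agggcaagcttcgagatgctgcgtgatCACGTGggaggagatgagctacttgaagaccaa
ATP6V0D1: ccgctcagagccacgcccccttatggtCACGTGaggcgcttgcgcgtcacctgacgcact
CD63: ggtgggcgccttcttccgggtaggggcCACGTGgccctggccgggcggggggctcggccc
CTSD: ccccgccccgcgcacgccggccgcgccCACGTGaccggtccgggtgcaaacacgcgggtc
A match describes the letters and is no measured site. The motif was also held by 7 of 30 promoters of translation factors (23.3%), and of those 7 genes 5 were lower and 0 higher. Among small calls 9.05% of the higher and 10.5% of the lower genes held it.

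Genes of the actin cytoskeleton and of migration rose in 28 of 42 cases (66.7%) and fell in 1 (2.38%), with a median difference of 0.14. Of all genes 20.7% rose and 18.7% fell. The list's median was -0.031 to 0.035 without SGI-110 and 0.094 to 0.18 with it, highest for number 13. ITGB2, the leukocyte beta integrin, had 10.13, 10.37 and 10.51 without SGI-110 and 10.68, 10.92 and 11.10 with it (0.57 ± 0.029, SE), and its partner ITGAM was 0.78 higher. RAC2, the haematopoietic Rac GTPase, went from 11.79, 11.87 and 11.89 to 12.12, 12.20 and 12.24 (0.34). GSN (gelsolin, 0.55), CORO1A (0.24), TLN1 (talin, 0.23), LCP1 (plastin, 0.23) and VIM (vimentin, 0.22) rose, ITGA4 fell (-0.34), and ACTB, CFL1 and PFN1, at 0.019 to 0.0345, did not pass. VIM's arrays overlapped between the arms, from 12.91 to 13.16 and from 13.10 to 13.39, yet each of its 6 pair differences lay between 0.17 and 0.24. The 7 probe sets of GSN spanned -0.043 to 0.60. With centred arrays 19 genes of the list rose and 2 fell, against 1791 and 3304 of all 12689 genes.

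Of 29 maturation genes of myeloid cells, 20 were bright enough to be tested. Of these 19 rose (95%) and 1 fell (5%), against 20.7% and 18.7% of all genes. Their median was 0.43, and 12 of the rises were under 1.5-fold. A gene that rises could pass that filter through its arrays with SGI-110 alone. With no filter 21 of the 29 were higher and 1 lower, and the median was 0.26. The smaller ones included TLR4 (0.42) and TLR2 (0.22), pattern receptors, CYBB (0.53) and CYBA (0.17), the oxidase's membrane subunits, and CEBPB (0.23) and CEBPD (0.080), transcription factors, CEBPD not called without the array number (limma adjusted p = 0.135). The larger were NCF1, the oxidase's organiser, whose probes can also read its pseudogenes (1.33), VCAN (1.40) and HP. VCAN went from 5.58, 5.87 and 7.01 to 6.97, 7.29 and 8.48, overlapping since number 13 was high in every group, while its 6 pair differences lay between 1.32 and 1.47. IRF8, a factor of monocyte and dendritic fate, fell from 11.73, 11.79 and 11.89 to 11.31, 11.36 and 11.56 (-0.40). Of the 11 identity markers tested 6 rose (54.55%) and 2 fell (18.2%), against 20.7% and 18.7% of all genes. Granule proteins differed by little: MPO was at -0.067 and ELANE at -0.053, both called lower, and CTSG at 0.039, called higher. All 3 calls ended without the array number (limma adjusted p = 0.444, 0.152 and 0.384).

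p53 targets and interferon-stimulated genes held both large and small differences. Of 33 p53 targets 30 rose (90.9%) and 1 fell (3.03%), against 20.7% and 18.7% of all genes, with a median of 0.72. Besides CDKN1A, SESN1 (1.55) and TP53INP1 (2.12), 10 rises were under 1.5-fold, among them CCNG1 (0.32), AEN (0.31), SESN2 (0.24), PLK3 (0.22) and CES2 (0.12), the latter pair not called without the array number (limma adjusted p = 0.0547 and 0.0753). FBXW7 was the member that fell (-0.19). The 3 probe sets of TP53INP1 spanned -0.0051 to 2.12. Of 30 interferon-stimulated genes 17 rose (56.7%) and 1 fell (3.33%), with a median of 0.18. With no brightness filter 17 of 36 rose and 1 fell. TRIM22 (1.09), IFIT3 (0.79) and IFI6 (0.73) came first, with ISG15 at 0.16 and IFITM3 at 0.23. MX1 (-0.15) and OAS2 (-0.046) did not pass, and XAF1 was lower (-0.21), a call that ended without the array number (limma adjusted p = 0.105).

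Markers of other cell types were read in the same way. Of 9 tested fibroblast and epithelial markers 4 rose (44.4%, against 20.7% of all genes). They were ACTA2, smooth muscle actin (1.45), the keratins KRT18 (0.79) and KRT8 (0.58), and PDGFRB (0.28). With no brightness filter 4 of 17 were higher and 1 lower. The 3 probe sets of ACTA2 spanned 0.022 to 1.45. COL1A1 (-0.048), FN1 (-0.11) and DCN (-0.033) did not pass. The summed linear level of this list's tested members was 659 to 755 without SGI-110 and 924 to 1187 with it, and 7 of the list's 17 genes were above the array median on all 12 arrays and 7 on none. Of 12 tested lymphoid markers EBF1 (0.49), GZMB (0.41) and NKG7 (0.27) rose (25%, against 20.7% of all genes) and none fell. GZMB's levels without SGI-110, 4.13 to 4.63, were all below the array medians, so it passed the brightness filter through arrays with SGI-110 alone. With no filter 3 of 19 lymphoid genes were higher and 1 lower. Summed levels of the tested members were 866 to 920 without SGI-110 and 976 to 1070 with it, and 8 of 19 genes were above the array median on all 12 arrays. Of 7 erythroid markers TFRC fell (-0.12; 14.3% of the list, against 18.7% of all genes), a call that was lost without the array number. The summed level of the erythroid list was 5099 to 6262 without SGI-110 and 4639 to 5733 with it, and 6 of 11 genes were above the array median on all 12 arrays. The part of other cells in the results was not tested.

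The apoptosis genes were read by role. Among death receptors and ligands, FAS (1.44), TNFRSF10B (0.95), TNFRSF10D, a decoy receptor (0.85), and TNF (0.60) rose by more than 1.5-fold, and TNFSF10, the ligand TRAIL (0.33), and TNFRSF10A (0.28) by less. TNFSF10 had 5.81, 6.02 and 6.44 without SGI-110 and 6.22, 6.35 and 6.71 with it, and was higher in 5 of 6 pairs. Transcripts of the receptor complex had differences of 0.12 or less: CFLAR, its inhibitor, rose by 0.11 (limma adjusted p = 0.0221), a call lost without the array number (0.0727) and after centring (0.262). CASP8 (0.12, adjusted p = 0.0789), CASP10 (0.091), FADD (0.051) and BID (0.019) did not pass. The 95% interval of CASP8 ran from 0.010 to 0.24. CASP8 was called with array weights (0.17), without the ASTX660 array numbered 2 (0.17), without the combination array numbered 2 (0.16) and without all arrays of number 2 (0.20). In all, 11 of 20 genes of the extrinsic pathway rose (55%, against 20.7% of all genes) and 0 fell, with a median of 0.15. Without number 13, 7 of the 20 rose, and 1713 of all 12689 genes were called higher.

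In the mitochondrial pathway, 11 of 24 genes rose (45.8%) and 6 fell (25%; median 0.083), against 20.7% and 18.7% of all genes. BAX, a pore-forming effector, went from 8.80, 8.84 and 9.05 to 9.62, 9.65 and 9.81 (0.79 ± 0.036, SE). APAF1, the scaffold of the apoptosome, rose by 0.39 in 6 of 6 pairs that ranged from 0.020 to 0.76, and HTRA2, a mitochondrial protease, by 0.26. CASP9, the caspase activated by the apoptosome, had 7.97, 8.02 and 8.18 without SGI-110 and 8.03, 8.24 and 8.38 with it (0.18; limma adjusted p = 0.00656), a call that centring ended (0.0641). The CASP9 call was also lost with the mean of all probe sets and without number 13, and 2 of its 3 probe sets were above 0. CASP2 went from a range of 10.92 to 11.02 to a range of 11.13 to 11.21 (0.21), without overlap. Among guardians, BCL2 fell from 9.50, 9.62 and 9.84 to 9.25, 9.36 and 9.43 (-0.29), with 3 of 4 probe sets below 0, MCL1 rose by 0.20 in 6 of 6 pairs, and BCL2L1 (0.021) did not pass. Of the BH3-only genes PMAIP1 was lower (-0.23), a call lost without the array number (0.0762), BIK lower (-0.14), and BMF (0.30), BCL2L11 (0.17) and BAD (0.15) higher. BCL2L11 was not called after centring (0.0665), without number 9 or without number 13. BAK1 was at -0.0063. With centred arrays 7 genes of this list rose, and 1791 of all 12689 genes did.

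The targets of ASTX660 were read as well. BIRC2 had 9.89, 9.97 and 10.11 without SGI-110 and 9.95, 10.11 and 10.24 with it, a difference of 0.12 ± 0.042 (SE; limma adjusted p = 0.0219). It was higher in 5 of 6 pairs, at 0.15 to 0.21, and lower in the combination minus ASTX660 pair numbered 2 (-0.16). The call was lost in 12 of 25 alternatives, among them without the array number (0.102) and after centring (0.217). XIAP was at 0.069 ± 0.059 (SE) and did not pass (limma adjusted p = 0.386). Over its 25 alternatives the adjusted p ranged from 0.00248 to 0.959 and the difference from -0.0064 to 0.16, and it was called in 3 of them: with array weights (0.12), without the combination array numbered 2 (0.15) and without all arrays of number 2 (0.16). It too was lower in that pair (-0.35) and higher in the other 5. The ASTX660 array of that pair is the one set apart on the third component, and its part in these values was not tested.

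Of 27 genes of DNA methylation and decitabine handling 9 rose (33.3%) and 8 fell (29.6%; median 0.023), against 20.7% and 18.7% of all genes. Among methyltransferases, DNMT3A had 6.19, 6.55 and 6.63 without SGI-110 and 6.62, 6.74 and 6.83 with it (0.24; limma adjusted p = 0.00485), and DNMT3B 6.50, 6.80 and 6.93 against 6.91, 6.98 and 7.08 (0.21; adjusted p = 0.00779). Neither passed without the arrays of number 9, and DNMT3B also did not pass without those of number 13. DNMT1, the maintenance enzyme and the target of decitabine, was 0.082 higher (limma adjusted p = 0.0217), which passed neither without the array number (0.0603) nor after centring (0.459). The demethylating TET1 fell (-0.49) and TET3 fell (-0.18), while TET2 rose (0.17). IDH1 (-0.35) and IDH2 (0.17), which make the co-substrate of the TET enzymes, moved in opposite directions, neither with overlap between the arms. DCTD, a deaminase of deoxycytidylate, fell (-0.32), SAMHD1, which hydrolyses deoxynucleotide triphosphates, rose (0.33), and DCK, the kinase that activates decitabine, was at 0.018 and did not pass. Centred arrays gave 5 higher and 10 lower, against 1791 and 3304 of all 12689 genes.

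For the smallest differences a rule set which genes are named. It took genes called in the pooled comparison under 1.5-fold, in neither 3-against-3 comparison, in the same direction in all 3 scalings and with the same sign in all 6 pairs. This left 351 genes, 19 higher and 332 lower, and the 12 in each direction with the smallest adjusted p are named. These values chose the genes and are given as a description; each gene's adjusted p in the 3-against-3 comparisons lies above 0.05 by the rule. SLC25A1, the mitochondrial citrate carrier, had 9.36, 9.47 and 9.74 without SGI-110 and 9.53, 9.69 and 9.79 with it, with pair differences of 0.051 to 0.29 (0.17 pooled). TTC28 was at 0.30, with 6 pair differences between 0.26 and 0.37 but arrays from 4.81 to 5.77 and from 5.16 to 6.05. It did not pass without the array number (0.260). The others higher were DNMBP, SLC41A1, POLR2J4, CAB39L, SMTN, GPR161, WNT7B, DNMT3B, PARD6G and MATK, at 0.18 to 0.28, and MATK alone of the 12 had arms without overlap (5.29 to 5.50 and 5.52 to 5.81).

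Among the lower 12 was NUP37, of the nuclear pore, with 11.15, 11.22 and 11.27 without SGI-110 and 11.08, 11.13 and 11.15 with it, a difference of -0.096 ± 0.024 (SE; 1.07-fold) and pair differences of -0.14 to -0.058. QRSL1, a subunit of the mitochondrial amidotransferase that charges glutamine tRNA, went from 9.01, 9.05 and 9.16 to 8.83, 8.90 and 8.98 (-0.16). JMJD4, a hydroxylase of the release factor, ranged from 7.44 to 7.61 and from 7.30 to 7.44 (-0.18). COX10, which makes haem for cytochrome oxidase (-0.19), POLQ, the polymerase of alternative end joining (-0.17), SHLD2, of the shieldin complex (-0.15), and NUP54, of the pore's channel (-0.12), followed with PIM3, PRRC2B, APEH, PYM1 and GABBR2, at -0.26 to -0.12. COX10 and POLQ rest on 1 of 2 probe sets each, whose partners read 0.054 and 0.033. PIM3 did not pass without the array number (0.115). Of these 24 genes, 17 were no longer called without the 4 arrays of number 13, 6 without number 9 and 1 without number 2. With the mean of all probe sets 7 were lost, and CAB39L and SHLD2 kept their call in every alternative run.

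**Figure D5:**
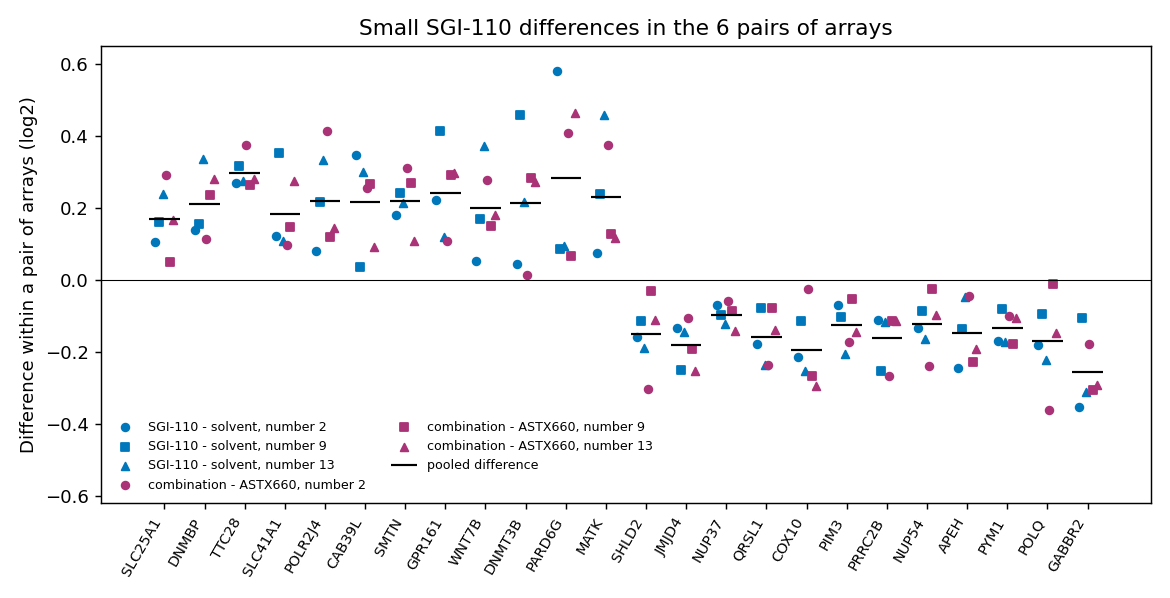
Points are the differences within the 6 pairs of arrays (log2, y axis) for the 24 genes named as smallest differences, blue for SGI-110 minus solvent and purple for the combination minus ASTX660, with a symbol for each number. Black bars are the pooled differences, 0.17 to 0.30 in the 12 higher genes and -0.26 to -0.096 in the 12 lower, and all points of a gene lie on the same side of 0 because the rule required it.

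Promoter sequence was read by the size of the difference. The 250 bases before the start held a median of 20 CG dinucleotides over the tested genes, and fewer than 5 CG in 10.2% of them. That share was 18.5% in genes at least 1.5-fold higher (40 of 216) and 24.1% in genes at least 1.5-fold lower (7 of 29). It was 8.90% in small rises (172 of 1933), 5.21% in small falls (102 of 1958) and 11.9% in genes not called. These shares are descriptions with no test, and methylation was not measured. Each gene was read at a single start, the first listed, so promoters at other starts are not covered. By list, 0 of 45 promoters of ribosome biogenesis genes and 8 of 15 of myeloid maturation genes had fewer than 5 CG. A stretch rich in CG and one poor in CG are shown, with CG in capitals. They precede the starts used for MAEL, at chr1:166975332-166975581 with 51 CG, and DNMT3B, at chr20:32779602-32779851 with 3 CG. Both are on the plus strand of GRCh38.p14 (RefSeq). Other starts of these genes were not read, so neither stretch stands for all promoters of its gene.
MAEL: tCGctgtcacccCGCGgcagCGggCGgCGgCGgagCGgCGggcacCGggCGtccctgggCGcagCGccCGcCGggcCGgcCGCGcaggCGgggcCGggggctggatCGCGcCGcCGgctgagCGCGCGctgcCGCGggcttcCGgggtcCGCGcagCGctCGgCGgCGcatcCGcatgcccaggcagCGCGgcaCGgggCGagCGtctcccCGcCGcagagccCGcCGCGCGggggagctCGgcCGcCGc
DNMT3B: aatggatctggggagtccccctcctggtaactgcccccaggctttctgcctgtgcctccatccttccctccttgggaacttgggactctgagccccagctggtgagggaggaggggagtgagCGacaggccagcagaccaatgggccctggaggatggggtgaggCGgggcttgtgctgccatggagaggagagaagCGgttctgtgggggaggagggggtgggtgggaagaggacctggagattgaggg
MAEL had 3.51 to 4.08 without SGI-110 and 5.53 to 6.48 with it, and DNMT3B, as given above, rose by 0.21.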

How the data were processed

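The deposited values are log2 intensities made by the authors with RMA in the affy package, per the submitters' processing notes, for 54675 probe sets on 12 arrays. The sources used here do not give if the arrays were normalized together. RMA compresses ratios, so folds are array folds. Probe sets with 1 symbol in the platform annotation (41091) were kept, the probe set of highest mean stood for its gene, and 12689 of 19775 genes above the array median on at least 3 arrays were tested. limma 3.58.1 in R 4.3.3 fitted SGI-110, ASTX660 and array number (7 residual degrees of freedom), with trended moderation and p-values adjusted by Benjamini-Hochberg over 12689 genes. The parts and the interaction used group means and number over all 12 arrays, with a shared estimate of the spread. The fits were tested on simulated data. The array number was taken as the experiment, which the labels do not state. Deviations of same-numbered arrays correlated at 0.057 to 0.57, and 16 of 18 correlations were over 0.1, so pairing is not settled, and calls of genes in the text that ended without the number are marked there. Named genes were the 6 strongest in each direction, the 12 smallest differences in each direction by the rule in the text, up to 4 members of each list by adjusted p, and 28 apoptosis, p53 and methylation genes; other list members were named after their values were seen. Of 106 named genes with several probe sets, 42 had one of opposite sign. The comparison, the lists and the rules were chosen with earlier results of these data known. The number of arrays, 3 a group, limits the precision.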

Additional observations from a re-analysis of the deposited data

Results flagged for a closer look

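Over the 6 pairs of arrays, 13 of 165 named genes (7.88%) had a pair far from the other 5, where chance gives about 1 in 20. In 7 of them this was the combination minus ASTX660 pair numbered 2, whose ASTX660 array stood apart on the third component: BCL2L11 (-0.038, others 0.18 to 0.25), BIRC2 (-0.16, others 0.15 to 0.21), XIAP (-0.35, others 0.085 to 0.25), PTPRC (0.15, others 0.60 to 0.86), ORC5 (-0.40, others -0.25 to -0.19), TET1 (-0.85, others -0.47 to -0.35) and TFRC (-0.25, others -0.13 to -0.078). The part of that array was not tested. In the combination minus ASTX660 pair numbered 9, CEBPE was at -0.23 (others 0.42 to 0.62) and DNMT3A at 0.55 (others 0.075 to 0.24). In the SGI-110 minus solvent pair numbered 9, FAS was at 1.69 (others 1.37 to 1.43) and LYZ at 0.30 (others 0.16 to 0.21). In number 13 of that comparison HK1 was at 0.65 (others 0.38 to 0.48), and in number 2 MED16 was at -0.24 (others -0.15 to -0.11).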

How the results depend on the processing

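Leaving out each array, or all arrays of a number, gave 3219 to 5284 pooled calls, 2905 to 4938 calls under 1.5-fold, 1497 to 3901 calls for SGI-110 minus solvent and 1629 to 3493 for the combination minus ASTX660. The lowest count was in each case the one without number 13. Without the replicate block (the array number) the 3-against-3 counts were 1955 and 2038. Array weights gave 4941 calls for SGI-110 minus solvent. A fit on only the 6 arrays of the contrast gave 4382 for SGI-110 minus solvent and 1931 for the combination minus ASTX660. The other settings kept these counts within 1.5 times, and the interaction stayed at 0 calls in each setting run. Of 153 named genes called, 109 kept their call in every setting and 44 lost it in at least 1, among them 11 without the block, 9 after centring and 1 after quantile normalization. RPL31 reversed to -0.012 after centring and to -0.036 as the mean of its probe sets, and MED28 to -0.0052 as the mean of its probe sets. The cause was not tested. Of the 24 genes named as smallest differences, 17 were not called without number 13. Of calls under 1.1-fold, 52.98% stood in all 3 scalings. The number of arrays limits all of these values.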
